A study of Mus musculus and Homo sapiens with 34 samples.

Results

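The brush border and microvillus adhesion genes described here are 10 genes, Cdhr2, Cdhr5, Ush1c, Anks4b, Myo7b, Calml4, Myo15b, Myo1a, Vil1 and Espn, looked up by gene symbol in 7 tables of raw read counts that each list 16553 to 26245 genes. The symbols are upper case in the human tables. All 10 were listed in every table except that of the 1027B organoids, which lists 8 and holds neither Cdhr5 nor Ush1c. They were selected on their log2 fold changes in these same tables, so the counts of calls and p values given for them are a description and support nothing.

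The series holds 34 RNA sequencing libraries of lung adenocarcinoma cultures, 22 from mouse and 12 from human, in 17 groups of 2. The mouse cultures are the 3154 organoids, with p53frt, Rosa-FSF-CreERT2 and Hnf4aflox among their alleles, and the 1027B organoids and the 3311 cell line, both with p53frt, Rosa-FSF-CreERT2, Foxa1flox and Foxa2flox among theirs. The Cre recombinase of these cultures is expressed from the Rosa locus and acts after 4-hydroxytamoxifen (4OHT), and no treatment that deletes Foxa1 or Foxa2 is named for the 1027B and 3311 libraries. The 3154 organoids received ethanol or 4OHT (2 mM per the labels) for 2 days and were harvested 2 weeks later. In a second experiment the 3154 organoids received ethanol or 4OHT, each with vehicle or with 3 nM of the inhibitor MRTX1133, for 48 hours, and how long after 4OHT they were harvested is not given in the sources used here. Trametinib, a MEK inhibitor, was given to the 1027B organoids at 10 nM and to the 3311 cells at 50 nM, and MRTX1133 to further 1027B organoids at 20 nM, each for 48 hours beside a vehicle group. The human line H1651 was kept for 7 days without or with 1 μg/mL doxycycline, where a lentiviral construct for HNF4α overexpression is named for the doxycycline libraries, and H1651 and H358 cells received vehicle or 20 nM trametinib for 48 hours. Each culture is a single line, so the 2 libraries of a group are repeats of that line, and nothing in the labels says whether they came from separate cultures. The p values then measure only the spread between these libraries, which may be technical.

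The brush border is the carpet of microvilli on the apical surface of enterocytes and kidney proximal tubule cells, and in the airway a tuft of such microvilli is known from rare tuft (brush) cells. Neighbouring microvilli are tied together at their tips by a link between the protocadherins CDHR2 and CDHR5, whose cytoplasmic tails are anchored by a complex of the scaffold USH1C (harmonin), the adaptor ANKS4B and the motor MYO7B with its light chain CALML4. Inside each microvillus, VIL1 (villin) and ESPN (espin) bundle actin filaments, and MYO1A ties the bundle to the membrane. MYO15B is an unconventional myosin related to MYO15A, which works at the tips of the stereocilia of hair cells. HNF4α is a nuclear receptor that activates genes of the differentiated intestinal and hepatic epithelium.

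Promoter sequences matched 9 of the 10 mouse genes by symbol and come from RefSeq on GRCm38.p6. Each was searched over the 250 bases before the transcription start, on both strands, for the patterns CAAAGNNCA and CAAAGTCCA, which an HNF4 site can hold. Every CAAAGTCCA is also a CAAAGNNCA. The first pattern was found in 5.49% of all 32851 promoter windows and in 1 of the 11 windows of the 9 genes, that of Anks4b. The second was found in 0.384% of windows and in 0 of the 11. The windows of 2 genes are shown, 5′ to 3′ on the strand of the gene, because Anks4b and Myo15b kept the smallest shares of their level after Hnf4a deletion, apart from the barely read Ush1c. Capitals mark a match. The Anks4b window is chr7:120173608-120173857 on the plus strand, and its match begins 59 bases before the start and lies on the opposite strand. The Myo15b window is chr11:115857675-115857924 on the plus strand and holds no match, and its RefSeq start lies upstream of the gene start in the annotation used for coordinates.
Anks4b: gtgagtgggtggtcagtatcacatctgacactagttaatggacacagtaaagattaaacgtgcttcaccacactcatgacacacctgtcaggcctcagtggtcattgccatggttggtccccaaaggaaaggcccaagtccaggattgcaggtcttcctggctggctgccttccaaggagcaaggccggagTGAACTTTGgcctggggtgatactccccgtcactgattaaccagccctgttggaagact
Myo15b: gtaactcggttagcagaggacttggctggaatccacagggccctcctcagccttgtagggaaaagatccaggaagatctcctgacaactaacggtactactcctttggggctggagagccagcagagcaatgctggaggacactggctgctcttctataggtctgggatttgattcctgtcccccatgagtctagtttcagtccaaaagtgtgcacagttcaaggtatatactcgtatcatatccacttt

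A match of letters is a description of the window and not evidence of binding. In the GENCODE M21 annotation of GRCm38, matched by gene identifier, the linker genes lie at chromosome 13, 54701461 to 54736662, plus strand (Cdhr2) and chromosome 7, 141269083 to 141276786, minus strand (Cdhr5). The anchoring complex lies at chromosome 7, 46195350 to 46238503, minus strand (Ush1c), chromosome 7, 120173858 to 120185586, plus strand (Anks4b), chromosome 18, 31959234 to 32036961, minus strand (Myo7b) and chromosome 9, 62858080 to 62875921, plus strand (Calml4). The remaining myosins lie at chromosome 11, 115858406 to 115892603, plus strand (Myo15b) and chromosome 10, 127705170 to 127720940, plus strand (Myo1a), and the actin bundlers at chromosome 1, 74409376 to 74435559, plus strand (Vil1) and chromosome 4, 152120331 to 152152371, minus strand (Espn). All 10 are annotated as protein coding. Exons of 3 of them overlap a gene on the opposite strand, over 3.12% of the exon bases of Ush1c (Gm9860), 1.38% of Vil1 (Usp37) and 0.0913% of Myo15b (Recql5). Whether reads were counted by strand is not given in the sources used here.

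Total counts per library ran from 19692517 to 45284286. Levels are CPM, counts scaled to TMM-adjusted library sizes, errors are the SD of n = 2 libraries, and changes are log2 fold changes from edgeR's quasi-likelihood test, with Benjamini-Hochberg adjustment over every gene tested in a table. A gene was called at an adjusted p under 0.05. With 2 libraries against 2, an exact permutation test cannot reach 0.05, so each p rests on the model's spread. All 6 epithelial markers (Epcam, Cdh1, Krt8, Krt18, Krt19, Cldn7) were above 1 CPM in every group. Of 6 lung epithelial markers (Nkx2-1, Sftpc, Sftpb, Napsa, Scgb1a1, Hopx), all 6 were above 1 CPM in every 3154 and 1027B group, while 2 of 6 were in 3311 under vehicle, where Sftpc was 0.0743 and 0.0398 CPM, from 2 counts and 1 count. The human tables list 4 of these 6, of which 1 was above 1 CPM in H1651 without inhibitor or doxycycline and 3 in H358 under vehicle, where SFTPB had 0 counts.

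Before any deletion or drug, the link genes and the actin bundlers were the most abundant of the set in the organoids, and the anchoring complex was lower. Per kilobase of exon in the 48-hour 3154 controls (CPM per kb, mean of 2), Cdhr2 stood at 72.2, Vil1 at 37.8, Cdhr5 at 30.1 and Espn at 27.1. The libraries of Espn (20.4 to 33.9) spanned those of Cdhr5 (27.8 to 32.4), so these neighbours were not separated, whereas those of Vil1 (35.6 to 40.1) lay above both. Myo15b (7.58) and Calml4 (7.20) overlapped, and Anks4b (5.82), Myo7b (2.97) and Myo1a (0.396) followed without overlap. In the 2-week controls Vil1 (68.2) stood above Cdhr2 (58.5). At 48 hours Ush1c, the scaffold that holds the complex together, was the lowest at 0.175 CPM per kb, from 11 and 21 counts.

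In the 3311 line 3 of the 4 genes of the anchoring complex stood above 20 CPM per kb of exon and an actin bundler was nearly missing. Under vehicle, Cdhr5 led with 86.0 CPM per kb, followed by Vil1 (48.8), Myo7b (35.0), Cdhr2 (28.2), Myo15b (25.8), Ush1c (22.3) and Calml4 (20.3). From Vil1 to Calml4 the libraries of each gene overlapped those of the next. Anks4b, the remaining gene of the complex, was at 6.26 and Myo1a at 5.56. Espn was the lowest at 0.268 CPM per kb. The 1027B organoids had Cdhr2 at 78.7, Vil1 at 25.4 and Espn at 16.0 CPM per kb, and Myo7b at 0.0916, from 15 and 9 counts. The 3 cultures were counted in separate tables, and the annotation used for these lengths may not be the one used for counting, so these levels are set side by side with no test.

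**Figure D1:**
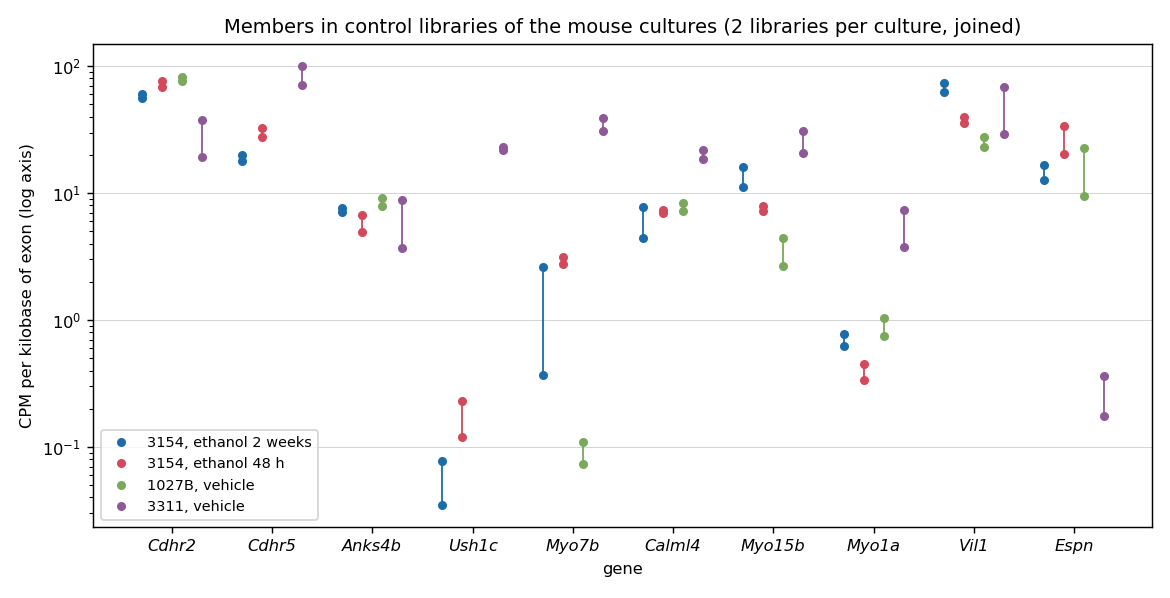
Level of each gene in the control libraries of the mouse cultures, as CPM per kilobase of exon on a log axis, with 2 points per culture joined by a line. The points of Ush1c and Myo7b lie far higher for 3311 than for the organoids and those of Espn far lower, and Cdhr5 and Ush1c have no 1027B points because that table does not list them.

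The deletion experiments compare 4OHT with ethanol in 3154 organoids. No group without the floxed Hnf4a allele received 4OHT. Effects of 4OHT itself or of active Cre cannot be told apart from those of Hnf4a loss. Hnf4a itself was 315 and 427 CPM in the ethanol libraries harvested at 2 weeks and 53.4 and 67.9 CPM after 4OHT. In the 48-hour experiment it was 221 and 230.0 CPM with ethanol and 49.4 and 50.3 with 4OHT, and with MRTX1133 added 179.7 and 184 with ethanol against 25.3 and 29.8 with 4OHT. It fell by 2.61, 2.18 and 2.72 on the log2 scale in these comparisons (adjusted p = 0.00643, 1.41e-04 and 7.81e-05). Counts are per gene, so reads from exons outside the deleted part are included.

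After deletion genes of every layer fell, from the intermicrovillar link to the actin core. At 2 weeks 8 of the 9 genes tested were called, all lower, where 9.81% of all genes tested were called (4.03% higher and 5.78% lower). In the 48-hour experiment 10 of 10 were called lower with vehicle, where 31% of all genes were called (15.3% higher and 15.7% lower). Under MRTX1133 10 of 10 were called lower, where 27.7% were called (13.2% higher and 14.5% lower). Because the genes were chosen with these contrasts known, nothing is read from these counts. The median log2 fold change of the tested members was -3.07 at 2 weeks, -3.49 at 48 hours with vehicle and -4.33 under MRTX1133, and -2.96 and -3.28 in the last pair when Ush1c is set at its bound, while the median over all genes tested lay between -0.00512 and 0.0185. In bulk RNA, fewer cells that express a gene and less RNA per cell cannot be told apart.

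**Figure D2:**
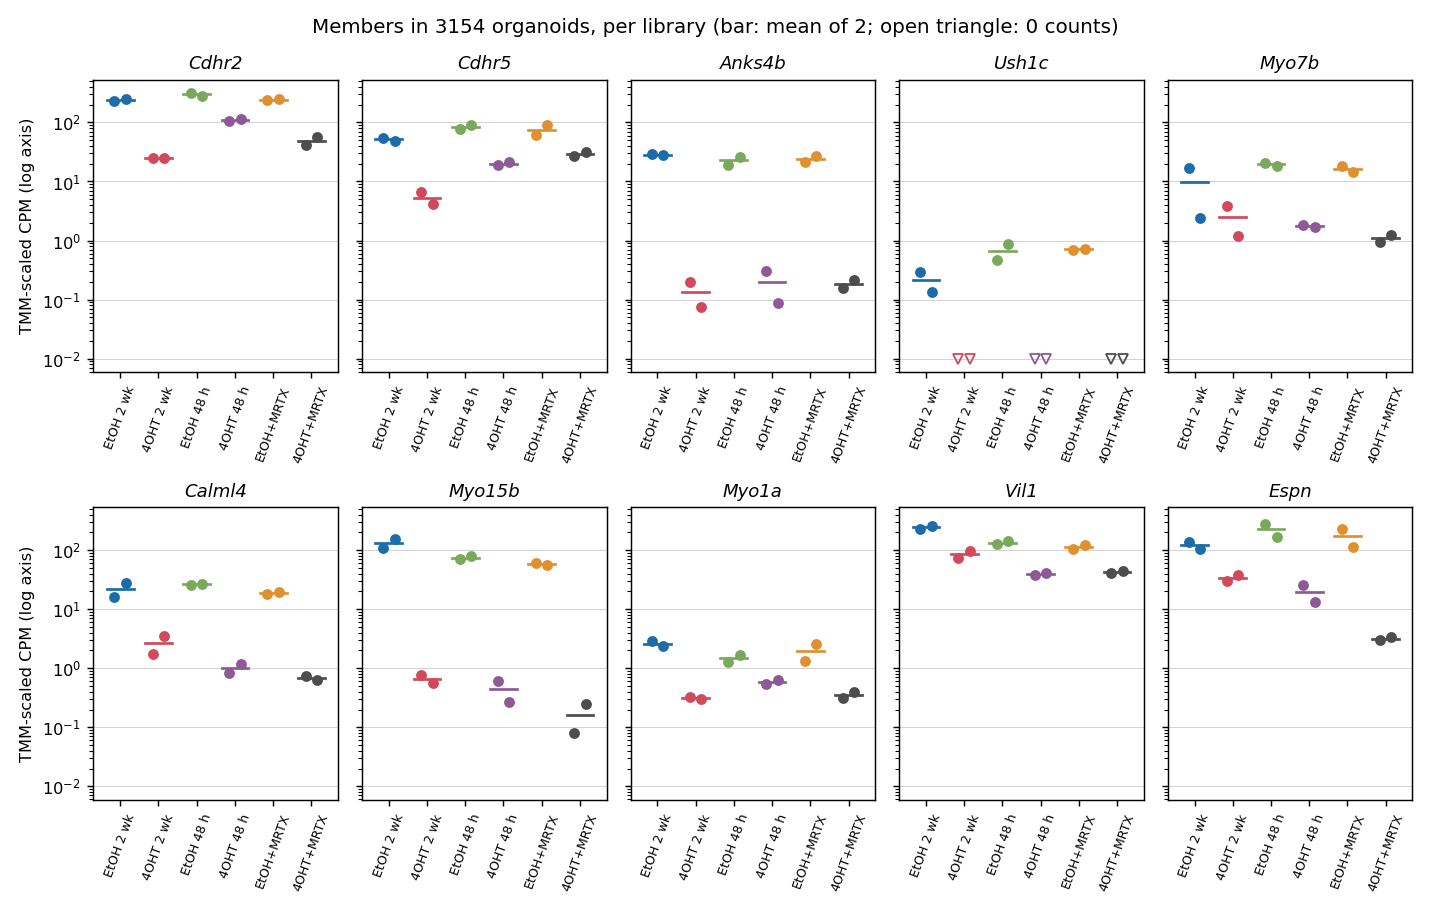
Level of each gene in the 12 libraries of 3154 organoids, as TMM-scaled CPM on a log axis, with points for libraries and a bar for the mean of 2; open triangles mark libraries with 0 counts. In each 4OHT group the points lie below the matching ethanol group for all genes except Myo7b at 2 weeks, where the groups overlap. Over all genes tested both 4OHT libraries lie below both ethanol libraries in 30.3% at 2 weeks, 32.5% at 48 hours and 33.9% under MRTX1133.

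The link protocadherins kept between 10.4% and 39.0% of the control level. Cdhr2, the larger cadherin of the link, was 233 and 249.5 CPM in the 2 ethanol libraries and 25.0 and 25.4 CPM in the 2 4OHT libraries at 2 weeks, a change of -3.26 (SE 0.13, adjusted p = 0.00193). In the 48-hour experiment it was 315 and 281 CPM against 107 and 116, a change of -1.41 (SE 0.16, adjusted p = 9.71e-04). Under MRTX1133 it was 238 and 249 against 41.2 and 56.0, a change of -2.32 (SE 0.17, adjusted p = 1.95e-04). The remaining level was 10.5%, 37.5% and 20.0% of the matching control, and every 4OHT library lay below the ethanol libraries. Cdhr5, its partner, was 54.4 and 48.9 CPM against 6.63 and 4.08 at 2 weeks (-3.26, SE 0.27, adjusted p = 0.00645). It was 76.2 and 88.9 against 18.9 and 21.0 at 48 hours, a change of -2.05 (SE 0.21, adjusted p = 6.15e-04), and 60.6 and 89.6 against 27.0 and 31.6 under MRTX1133, a change of -1.36 (SE 0.20, adjusted p = 0.00269). Both genes had their lowest remaining share at 2 weeks, but the 2 experiments were counted in separate tables and the difference between them was not tested.

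The adaptor Anks4b was almost lost. It was 29.5 and 27.7 CPM in ethanol and 0.197 and 0.0749 CPM after 4OHT at 2 weeks, from 895 and 618 counts down to 6 and 2. The change was -7.64 (SE 0.35, adjusted p = 0.00193), which is 199-fold lower. At 48 hours it was 19.3 and 26.2 against 0.303 and 0.0893 CPM (-6.76, SE 0.38, adjusted p = 1.29e-04), and under MRTX1133 21.4 and 27.4 against 0.158 and 0.213 (-6.99, SE 0.38, adjusted p = 1.13e-04). Between 0.475% and 0.864% of the control level remained, and the 4OHT libraries held 2 to 8 counts each.

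The scaffold Ush1c was barely read even with Hnf4a intact. It had 9 and 3 counts in the ethanol libraries and 0 counts in both 4OHT libraries at 2 weeks, and was removed there by the filter on low counts. At 48 hours it had 11 and 21 counts against 0 in both 4OHT libraries, and 18 and 18 against 0 under MRTX1133. Set against a floor of 3 counts per library, Ush1c was at least 5.43-fold lower with vehicle (adjusted p = 0.00609) and at least 6.29-fold lower under MRTX1133 (adjusted p = 0.00553). A level of up to 3 counts, 0.106 to 0.134 CPM in these 4 libraries, could not have been seen.

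The motor of the complex and its light chain fell as well. Myo7b was 20.9 and 18.4 CPM with ethanol and 1.82 and 1.70 CPM with 4OHT at 48 hours, a change of -3.48 (SE 0.22, adjusted p = 1.41e-04), and 18.6 and 14.5 against 0.946 and 1.24 under MRTX1133, a change of -3.91 (SE 0.23, adjusted p = 1.26e-04). At 2 weeks the ethanol libraries themselves disagreed, with 17.2 and 2.42 CPM, and the 4OHT libraries at 3.84 and 1.20 CPM overlapped them. The change there, -1.96 (SE 0.96, adjusted p = 0.242), was not called. With the replicate number as a block it was -1.73 and called (adjusted p = 0.00721), where that fit called 31.5% of all genes. Without the block and without the first ethanol library it was 0.06. Without the second ethanol library it was -2.75 and called (adjusted p = 0.00240). Calml4 was 16.1 and 28.3 CPM against 1.77 and 3.52 at 2 weeks (-3.07, SE 0.44, adjusted p = 0.0172). At 48 hours it was 25.6 and 26.8 against 0.834 and 1.16 (-4.72, SE 0.20, adjusted p = 5.29e-05), and under MRTX1133 18.1 and 19.5 against 0.749 and 0.639 (-4.75, SE 0.21, adjusted p = 7.42e-05). Its remaining share, 11.9% at 2 weeks, was 3.81% and 3.69% in the 48-hour experiment, and the groups did not overlap in any of the 3 comparisons.

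Myo15b, the relative of the stereociliary myosin, fell about as far as Anks4b, from a higher level. It was 109 and 157 CPM in ethanol, from 3315 and 3495 counts, and 0.755 and 0.562 CPM after 4OHT, from 23 and 15 counts. The change was -7.64 (SE 0.30, adjusted p = 0.00193), or 199-fold. At 48 hours it was 71.4 and 78.0 against 0.606 and 0.268 CPM, a change of -7.37 (SE 0.32, adjusted p = 5.29e-05). Under MRTX1133 it was 60.3 and 57.1 against 0.0788 and 0.248, a change of -8.41 (SE 0.36, adjusted p = 7.42e-05). At most 0.585% of the control level remained in any of the 3 comparisons.

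Myo1a, the membrane linker of the enterocyte microvillus, was a low-level transcript throughout. It was 2.90 and 2.33 CPM against 0.328 and 0.300 at 2 weeks (-3.04, SE 0.39, adjusted p = 0.0141), 1.26 and 1.68 against 0.531 and 0.625 at 48 hours (-1.35, SE 0.42, adjusted p = 0.0424) and 1.30 and 2.57 against 0.315 and 0.390 under MRTX1133 (-2.43, SE 0.43, adjusted p = 0.00539). Its groups did not overlap, but the call depended on single libraries. At 2 weeks it was lost without either 4OHT library (adjusted p = 0.0758 without the first and 0.0692 without the second). At 48 hours it was lost without either vehicle 4OHT library (0.199 and 0.144) and without the second ethanol library (0.113). It was called without each library in turn under MRTX1133.

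Of the actin bundlers, Vil1 kept a similar share in each comparison, while the share of Espn was lowest under the inhibitor. Vil1 was 224 and 261 CPM with ethanol and 74.5 and 98.5 CPM after 4OHT at 2 weeks, a change of -1.49 (SE 0.18, adjusted p = 0.0126). It was 126 and 142 against 37.9 and 41.3 at 48 hours (-1.76, SE 0.14, adjusted p = 2.71e-04) and 103 and 121 against 41.5 and 44.0 under MRTX1133 (-1.39, SE 0.14, adjusted p = 5.31e-04). Between 29.5% and 38.1% of the control level remained. Espn was 137 and 105 CPM against 30.2 and 38.1 at 2 weeks (-1.82, SE 0.20, adjusted p = 0.0106) and 280.1 and 169 against 26.2 and 13.2 at 48 hours (-3.51, SE 0.45, adjusted p = 0.00141). Under MRTX1133 it was 231 and 115 against 2.96 and 3.41 (-5.76, SE 0.51, adjusted p = 3.68e-04), with 1.84% remaining. The difference between the Espn falls with vehicle and under MRTX1133 was not called by edgeR (-2.25, SE 0.61, adjusted p = 0.542). DESeq2 called it (adjusted p = 0.0490), and the difference from the 2-week experiment was not tested. The Espn controls of the 48-hour experiment differed between libraries, with the first higher than the second both with vehicle and with MRTX1133.

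The 12 libraries of 3154 were also used to describe how the members vary together, with log2 CPM values (prior count 2) centred within each table. Over 9 members with a value in each table, pairwise Pearson r lay between 0.646 and 0.992, with a median of 0.900. Myo15b followed the mean of the other 8 most closely (r = 0.996) and Myo7b least (r = 0.869). Of 10459 genes with a mean of at least 5 CPM, the 5 most like the mean of the 9 were Rundc3b (0.996), Misp (0.988), Ddc (0.986), Hnf4a (0.985) and Acp6 (0.985). These libraries share their cultures and the deletion sets most of their spread, so r is a description and carries no p.

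The other genes of the microvillus as a list had a median below 0 at 2 weeks and medians near 0 in the 48-hour experiment. Of 18 tested among 20 other core and linker genes, 5 were called lower and 2 higher at 2 weeks (median log2 fold change -0.33). Of all genes tested 5.78% were called lower there and 4.03% higher. At 48 hours 2 of 18 were lower and 2 higher (median 0.03), where 15.7% of all genes were lower and 15.3% higher. Under MRTX1133 3 were lower and 1 higher (median -0.00256), where 14.5% of all genes were lower and 13.2% higher. The members of that list called lower included Myo6, a motor that moves cargo towards the microvillus base (-1.76 at 2 weeks, adjusted p = 0.0148), and Pls1, the third actin bundler of the brush border (-0.94 at 48 hours, adjusted p = 0.00407). Called higher were Fscn1, a bundler of filopodia, at 2 weeks (4.90, adjusted p = 0.00470) and Nherf2 at 48 hours (1.96, adjusted p = 5.38e-04).

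Among brush border enzymes and transporters, most of those tested were called lower, where 5.78%, 15.7% and 14.5% of all genes were called lower at 2 weeks, at 48 hours with vehicle and under MRTX1133. Of 14 tested among 22, 9 were called lower and 0 higher at 2 weeks (median -3.08), and of 13 tested at 48 hours 7 were lower and 1 higher in each deletion comparison (medians -2.02 and -1.98). Alpi, intestinal alkaline phosphatase, averaged 13.9 ± 13.3 CPM in ethanol and 0.0913 ± 0.0828 after 4OHT at 2 weeks (adjusted p = 0.0215). Ggt1, a peptidase of glutathione turnover, averaged 44.8 ± 48.5 and 0.415 ± 0.110 CPM (adjusted p = 0.0260), and for both genes the ethanol libraries differed widely. Of the stereociliary counterparts, 1 of 4 tested was called at 2 weeks, and it was higher: Ush1g, a scaffold of the hair cell complex, at 1.90 (adjusted p = 0.0466). At 48 hours 2 of 5 were called, both higher, with vehicle, and 3 of 5 under MRTX1133, 2 higher and 1 lower. Ush1g was called higher with vehicle (2.52, adjusted p = 0.00441) and under MRTX1133 (2.14, adjusted p = 0.00796).

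Of the intestinal transcription factors, 4 of 13 tested were called at 2 weeks, all lower, 8 of 14 at 48 hours (5 lower, 3 higher) and 9 of 14 under MRTX1133 (7 lower, 2 higher), where 9.81%, 31% and 27.7% of all genes were called. The list holds Hnf4a, the deleted gene, which makes up 1 of the lower calls in each comparison. Tuft cells also express Vil1, and the summed tuft marker list was 0.923 to 1.01 CPM with ethanol and 5.08 to 5.22 with 4OHT at 48 hours, from 2 listed markers of 8 with 1 above 1 CPM after 4OHT. Under MRTX1133 it was 0.612 to 0.763 against 3.19 to 3.34 CPM, and the 1 tuft marker tested was called higher in both comparisons. The immune sum under MRTX1133 was 3.09 to 6.39 against 9.77 to 10.1 CPM, with 1 of 4 called higher, and the 1 fibroblast marker tested was called higher but summed to under 1 CPM. At 2 weeks the tuft sum was 6.43 to 9.65 against 10.7 to 20.4 CPM, from 3 listed markers of which 2 had 0 counts with ethanol, and the summed immune markers were 18.4 to 44.7 against 10.2 to 13.6 CPM, with 2 of 4 listed above 1 CPM in both groups. Of the 6 lung markers 1 was called at 2 weeks, 4 at 48 hours with vehicle and 3 under MRTX1133, all higher, with Scgb1a1, the club cell secretoglobin, at 51.0 ± 24.6 against 528 ± 147 CPM with vehicle (3.37, adjusted p = 0.000713). The summed lung markers were 8211 to 11016 against 8359 to 10718 CPM at 2 weeks, 6573 to 8891 against 8275 to 9653 at 48 hours with vehicle and 11142 to 14002 against 13704 to 17996 under MRTX1133. Of 2 ciliated markers tested 1 was called higher at 48 hours with vehicle (2.13), where the list summed to 0.294 to 0.671 against 1.33 to 2.05 CPM. The 1 endothelial marker tested was called lower at 2 weeks, the list summing to 5.07 to 5.93 against 2.17 to 2.55 CPM. Their part in the result was not tested.

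With Hnf4a intact, MRTX1133 moved none of the genes past the threshold. edgeR called 0 of 10, with a median log2 fold change of -0.25, where 0.349% of all genes tested were called (0.317% higher and 0.0323% lower). Cdhr2 was 315 and 281 CPM with vehicle and 238 and 249 with MRTX1133 (-0.29, SE 0.16, adjusted p = 0.541), and Myo15b 71.4 and 78.0 against 60.3 and 57.1 (-0.35, SE 0.21, adjusted p = 0.597). Calml4 had the smallest p of the set, with 25.6 and 26.8 CPM against 18.1 and 19.5 (-0.48, SE 0.16, adjusted p = 0.296). In these 3 genes both treated libraries lay below both controls, as they did for Vil1, whereas the other 6 genes overlapped. Over all genes tested the groups did not overlap in 33%. Both treated libraries lay below both controls in 15% of all genes, and in 4 of the 10 here. From that count nothing is read. Hnf4a changed by -0.31 (SE 0.12, adjusted p = 0.378). Calml4 was also the 1 gene of the 10 with an unadjusted p under 0.05, as were 1820 of the 15458 genes tested, and DESeq2 called 0 of 10.

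After deletion, the link cadherin and espin lost further mRNA under the inhibitor. 2 of 10 were called, both lower, with a median of -0.60, where 4.64% of all genes were called (2.1% higher and 2.54% lower). Cdhr2 was 107 and 116 CPM with 4OHT alone and 41.2 and 56.0 with 4OHT and MRTX1133, a change of -1.20 (SE 0.16, adjusted p = 0.0179). Espn was 26.2 and 13.2 CPM against 2.96 and 3.41, a change of -2.63 (SE 0.47, adjusted p = 0.0266). The groups overlapped in neither gene, but both calls were lost without any 1 of the 4 libraries (adjusted p 0.0515 to 0.21 for Cdhr2 and 0.116 to 0.271 for Espn). Cdhr5 stood on the other side, at 18.9 and 21.0 against 27.0 and 31.6 CPM (0.55, SE 0.21, adjusted p = 0.175, not called). In a fit of only the 2 groups compared it was called higher (adjusted p = 0.00804), where that fit called 3932 of 14847 genes. Anks4b, Ush1c and Myo15b had at most 16 counts per library in both groups. Hnf4a was also lower, 49.4 and 50.3 CPM against 25.3 and 29.8 (-0.86, SE 0.13, adjusted p = 0.0185), and the part of its remaining mRNA in the result was not tested. Of the 6 lung markers 2 were called higher and 1 lower, their sum going from 8275 to 9653 to 13704 to 17996 CPM, and the immune sum was 5.34 to 6.61 against 9.77 to 10.1 CPM with 0 of 4 called. The part of these markers was not tested.

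Whether MRTX1133 acted differently with and without Hnf4a was tested as an interaction. Of 15458 genes edgeR called 0 (0%), 1150 had an unadjusted p under 0.05, and the smallest adjusted p was 0.541; DESeq2 called 36. Among the members, the extra change after deletion was -0.91 (SE 0.23, adjusted p = 0.541) for Cdhr2, -2.25 (SE 0.61, adjusted p = 0.542) for Espn and 0.69 (SE 0.29, adjusted p = 0.643) for Cdhr5. edgeR called 0 of the 10, and 3 of them, Cdhr2, Cdhr5 and Espn, had an unadjusted p under 0.05. Espn was called by DESeq2 (adjusted p = 0.0490) and by none of the edgeR fits, whose adjusted p ranged from 0.239 to 1.000.

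In human H1651 cells with raised HNF4A the genes stood higher. HNF4A was 47.0 and 35.9 CPM without and 94.3 and 96.7 with doxycycline (1.20, SE 0.13, adjusted p = 0.00978), and reads from the lentiviral construct may be counted in it. All 10 members had positive log2 fold changes, with a median of 1.45 against -0.00371 over all genes, and both doxycycline libraries lay above both controls for each of the 10, as for 21.4% of all genes tested. Of these, 6 were called higher, where 1.42% of all genes tested were called (1.04% higher and 0.386% lower), and from that count nothing is read. The labels name the construct for the doxycycline libraries and not for the untreated ones, and an effect of doxycycline itself cannot be told apart from that of HNF4A.

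The link genes rose the most. CDHR2 was 0.741 and 0.572 CPM without and 15.5 and 9.22 with doxycycline, from 18 and 15 counts to 394 and 209, a change of 4.23 (SE 0.34, adjusted p = 0.00337) or 18.8-fold. CDHR5 was 1.65 and 3.59 against 19.4 and 25.8 CPM, a change of 3.10 (SE 0.31, adjusted p = 0.00825) or 8.56-fold. The first doxycycline library was the higher for CDHR2 and the second for CDHR5. In the anchoring complex, MYO7B was 0.741 and 0.572 against 4.20 and 2.87 (2.43, SE 0.33, adjusted p = 0.0215), ANKS4B 3.30 and 2.37 against 9.35 and 7.32 (1.56, SE 0.23, adjusted p = 0.0288) and USH1C 15.2 and 15.9 against 27.6 and 30.9 (0.91, SE 0.11, adjusted p = 0.0127). CALML4 was 2.18 and 1.98 against 4.79 and 3.93 (1.07, SE 0.23, adjusted p = 0.0852) and was not called. USH1C, almost unread in the 3154 organoids, was among the best-read members in H1651 before induction, with 368 and 416 counts.

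Among motors and bundlers, VIL1 was called at 1.36 and 1.07 against 5.14 and 4.15 CPM (1.94, SE 0.26, adjusted p = 0.0194). MYO1A was 2.55 and 2.98 against 5.73 and 8.29 (1.34, SE 0.24, adjusted p = 0.0536), MYO15B 18.4 and 14.5 against 31.0 and 21.6 (0.68, SE 0.19, adjusted p = 0.183) and ESPN 5.11 and 4.08 against 8.40 and 6.40 (0.69, SE 0.21, adjusted p = 0.216), and none of these 3 was called. DESeq2 called MYO1A (adjusted p = 0.00304) and MYO15B (0.0402), and MYO1A was also called with no count filter (0.0332) and without either control library or the first doxycycline library (0.0103 to 0.0485). MYO15B was called without the first control library (0.0390) or the second doxycycline library (0.00925). Apart from the barely read Ush1c, Myo15b and Anks4b kept the smallest shares after deletion in mouse. On induction MYO15B (0.68) and ESPN (0.69) had the lowest log2 fold changes of the 10, and their SE did not separate them. Mouse organoids and a human line differ in species, time and starting level, and the difference was not tested.

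**Figure D3:**
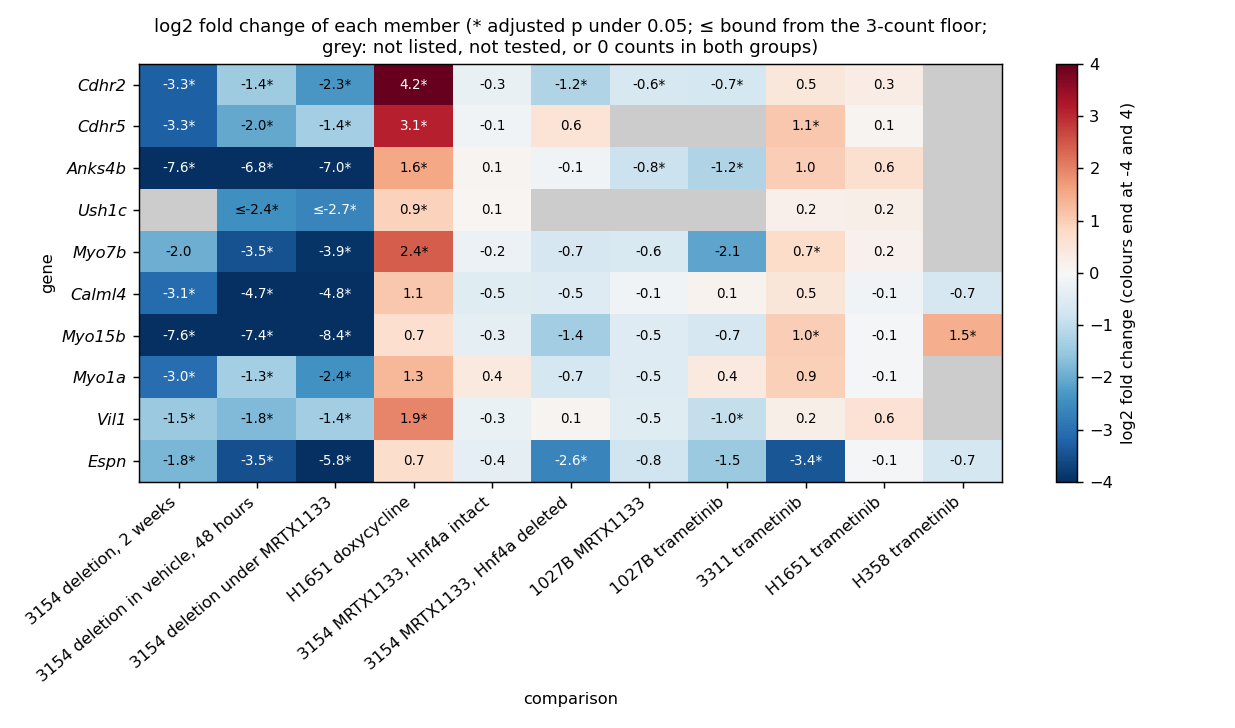
Log2 fold change of each gene (rows) in each comparison with its matching vehicle (columns), with the value printed in the cell, an asterisk for adjusted p under 0.05, a bound where all deleted libraries had 0 counts, and grey where no value could be had. The values in the 3 deletion columns are all negative, those in the doxycycline column all positive, and those in the inhibitor columns of both signs, except that all 8 for MRTX1133 in 1027B are negative.

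With doxycycline 1.04% of all genes tested were called higher and 0.386% lower. Beside the members, 5 of 14 tested brush border enzymes and transporters were called higher and 0 lower. They included XPNPEP2, a membrane peptidase, with 2 and 0 counts without and 87 and 102 with doxycycline (adjusted p = 0.00559), and ANPEP, aminopeptidase N, at 5.63 ± 1.59 against 41.3 ± 12.7 CPM (2.88, adjusted p = 0.00520). Of 20 other core and linker genes 3 were called higher, among them SLC9A3R1, a scaffold of apical transporters (0.83, adjusted p = 0.0134), and BAIAP2L2, a membrane-bending protein (0.77, adjusted p = 0.0283). Of 12 intestinal transcription factors 3 were called higher, among them HNF4A itself, the induced gene, and KLF4 (1.00). Of 7 stereociliary counterparts edgeR called 0, and 2 of them, MYO3B and MYO7A, had an unadjusted p under 0.05. How many of all genes tested had such a p was not counted. The 6 epithelial markers all had log2 fold changes above 0, with 2 called higher, and their sum was 4463 to 4465 CPM without and 5775 to 6259 with doxycycline. Of 3 tuft markers tested 1 was called lower, and the sum over 4 listed was 11.3 to 11.7 against 4.19 to 5.89 CPM. The summed fibroblast marker list was 643 to 725 CPM without and 407 to 445 with doxycycline, with 4 of 6 markers above 1 CPM in both groups, and 1 of 5 tested was called lower. The part of these markers in the result was not tested.

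In the 1027B organoids, where Hnf4a was not deleted, a few members were called lower with each inhibitor, with trametinib in a share near that of all genes. Hnf4a was 446 and 471 CPM with vehicle, 254 and 200.4 with trametinib (-1.01, SE 0.15, adjusted p = 0.00535) and 297 and 242 with MRTX1133 (-0.76, SE 0.15, adjusted p = 0.0375). With trametinib 3 of 8 tested members were called, all lower, with a median of -0.83, where 26.7% of all genes were called (13.5% higher and 13.2% lower). With MRTX1133 2 of 8 were called, both lower, with a median of -0.57, where 6.27% were called (3.01% higher and 3.26% lower), and 0 were called once any 1 of the 4 libraries was left out. The inhibitors share their 2 vehicle libraries, so the comparisons are not independent. Replicate numbers paired the libraries here, and with the number as a block 5 members were called lower with each inhibitor, where the same fit called 44.9% of all genes with trametinib and 24.1% with MRTX1133.

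Cdhr2 was 337 and 313 CPM with vehicle, 216 and 184 with trametinib (-0.70, SE 0.11, adjusted p = 0.00672) and 213 and 204 with MRTX1133 (-0.64, SE 0.11, adjusted p = 0.0272). Anks4b was 30.6 and 35.4 CPM, then 14.3 and 14.5 (-1.19, SE 0.15, adjusted p = 0.00331) and 16.6 and 20.1 (-0.85, SE 0.15, adjusted p = 0.0276). For both genes all treated libraries lay below the vehicle libraries. The MRTX1133 calls of Cdhr2 and Anks4b were lost without any 1 of the 4 libraries compared (adjusted p 0.082 to 0.137 and 0.0723 to 0.153). Vil1 was 98.0 and 82.4 CPM, then 41.9 and 50.9 with trametinib (-0.96, SE 0.18, adjusted p = 0.0109) and 73.6 and 54.7 with MRTX1133 (-0.49, SE 0.18, adjusted p = 0.162, with the block 0.0428). The trametinib call of Vil1 was lost without the first trametinib library (adjusted p = 0.0762).

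Espn and Myo15b differed between the 2 vehicle libraries and were not called in the fit without the block. Espn was 77.8 and 186 CPM with vehicle, 29.4 and 65.5 with trametinib and 53.5 and 98.0 with MRTX1133. Its trametinib change was -1.48 (SE 0.53, adjusted p = 0.0823), with an adjusted p of 2.21e-05 with the block, and its MRTX1133 change was -0.80 (SE 0.52, adjusted p = 0.411), with 0.00150 with the block. Without the first vehicle library the trametinib change was -1.97 and called (adjusted p = 0.0455). Myo15b was 26.3 and 43.7 CPM with vehicle, 20.4 and 23.3 with trametinib and 19.2 and 29.4 with MRTX1133. Its trametinib change was -0.68 (SE 0.29, adjusted p = 0.125), with 0.00635 with the block, and its MRTX1133 change was -0.53 (SE 0.29, adjusted p = 0.328), with 0.0292 with the block. In both genes the second library was the higher in all 3 groups.

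The genes Calml4, Myo1a and Myo7b were not called with either inhibitor. Calml4 was 26.2 and 30.5 CPM with vehicle, 37.4 and 24.5 with trametinib and 26.0 and 25.9 with MRTX1133. Myo1a was 3.82 and 2.76 CPM with vehicle, 4.98 and 3.64 with trametinib and 2.56 and 2.04 with MRTX1133, where both libraries lay below the vehicle. Myo7b, at 0.726 and 0.487 CPM with vehicle and 0.0445 and 0.233 with trametinib, rested on 1 to 15 counts per library. Compared directly, 0 of 8 members and 0 of 14555 genes (0%) were called between MRTX1133 and trametinib by edgeR, where 2358 genes had an unadjusted p under 0.05, and DESeq2 called 712 genes and 0 members. With the block, Myo1a was lower (-0.90, adjusted p = 0.0460) and Espn higher (0.72, adjusted p = 0.00419) with MRTX1133 than with trametinib. The doses differed, at 20 nM and 10 nM.

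The summed tuft marker list was lower with both inhibitors in 1027B, from 137 to 202 CPM to 26.6 to 37.5 with trametinib and 44.6 to 59.9 with MRTX1133. 4 of its 8 markers are listed, 2 of them above 1 CPM, and Avil, an actin-bundling relative of Vil1, made up nearly all of the sum at 168 ± 45.6 CPM with vehicle and 31.0 ± 8.12 with trametinib. Pou2f3, the defining tuft factor, was 1.6 and 1.25 CPM with vehicle, and Sh2d6 had 0 counts. The part of tuft cells in the result was not tested. The summed lung markers were 6326 to 10354 CPM with vehicle, 2343 to 2934 with trametinib and 3078 to 4739.9 with MRTX1133, with 6 of 6 above 1 CPM in each group. Sftpb, surfactant protein B, made up most of the vehicle sum and was lower with trametinib (-2.99, adjusted p = 0.00491), while 4 of the 6 were called higher, led by Sftpc (4.01), and the list's median was 0.94. With MRTX1133 1 of the 6 was called, higher, and the median was 0.50. Of the 6 epithelial markers 2 were called lower and 1 higher with trametinib and 1 lower with MRTX1133, with sums of 9228 to 9387 CPM with vehicle, 7557 to 8404 with trametinib and 8141 to 8281 with MRTX1133. Of 4 immune markers 1 was called higher and 1 lower with trametinib. The part of these genes in the result was not tested. Of all genes tested 26.7% were called with trametinib and 6.27% with MRTX1133. Of other core and linker genes, 3 of 16 were called lower and 3 higher with trametinib, and 1 lower and 1 higher with MRTX1133. Of 10 brush border enzymes and transporters 2 were lower and 2 higher with trametinib, and 1 was higher with MRTX1133. Of 5 stereociliary counterparts, Myo7a was higher (1.71) and Ush1g lower (-2.03) with trametinib. Of 11 transcription factors 3 were lower and 1 higher with trametinib, and 3 lower with MRTX1133, with Klf4 at -1.65 under trametinib. Clic5 rose with trametinib from 268 ± 106 to 1006 ± 76.5 CPM (adjusted p = 0.00646).

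In the 3311 line, Cdhr5, Myo7b and Myo15b rose with trametinib and Espn fell from an already low level, in a table where a like share of all genes was called. 4 of 10 members were called, 3 higher and 1 lower, with a median of 0.61, where 39% of all genes were called (19.4% higher and 19.6% lower), a share close to that of the members. Hnf4a was 374 and 479 CPM with vehicle and 263 and 390.0 with trametinib (-0.39, SE 0.22, adjusted p = 0.208). Cdhr5 was 196 and 275 against 379 and 609 CPM (1.07, SE 0.26, adjusted p = 0.0184), Myo7b 205 and 258 against 365 and 409 (0.74, SE 0.17, adjusted p = 0.0132) and Myo15b 204 and 305 against 426 and 581 (0.99, SE 0.24, adjusted p = 0.0174). Their groups did not overlap. These 3 calls were lost without the first vehicle library (adjusted p = 0.101, 0.0556 and 0.0766), which left 1 member called among 4424 of 15851 genes, and without the first trametinib library 8 were called among 3772 of 15779 genes. Espn was 1.45 and 2.99 CPM against 0.251 and 0.152, from 39 and 75 counts to 7 and 4 (-3.42, SE 0.60, adjusted p = 0.00572).

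For 5 of the other members the groups overlapped, and for 5 of the 10 in all they did not, against 74.5% of all genes tested without overlap. Cdhr2 was 79.0 and 154 CPM with vehicle and 81.8 and 237 with trametinib (0.45, SE 0.49, adjusted p = 0.492), and Vil1 103 and 243 against 124 and 280.4 (0.22, SE 0.46, adjusted p = 0.730). Anks4b was 14.5 and 34.3 against 32.9 and 63.8 (0.99, SE 0.44, adjusted p = 0.112) and Myo1a 13.9 and 27.4 against 26.5 and 52.9 (0.94, SE 0.40, adjusted p = 0.1000). In each of these 4 genes the second library was the higher in both groups. With the replicate number as a block, Anks4b (adjusted p = 0.00178), Myo1a (0.00288) and Calml4 (0.0233) were called higher, and Cdhr2 and Vil1 were not. That fit called 41.7% of all genes. DESeq2 without the block called Myo1a (adjusted p = 0.0353). Calml4 was 67.8 and 80.2 against 89.9 and 115 (0.47, SE 0.17, adjusted p = 0.0632), with no overlap but no call, and Ush1c 83.4 and 88.2 against 80.2 and 118 (0.21, SE 0.19, adjusted p = 0.430). Of 16 brush border enzymes and transporters tested, 6 were called higher and 1 lower, the lower one being Ggt1 at -3.33 (adjusted p = 0.00752). Of 19 other core and linker genes 6 were higher, led by Clic5 (2.61), and 3 lower, led by Fscn1 (-2.24). Of 13 transcription factors 7 were higher, led by Prdm1 (2.85) and Hnf4g (2.53), and 2 lower, and of 3 stereociliary counterparts Whrn was lower (-1.43). The summed lung markers were 4462 to 5114 CPM with vehicle and 469 to 567 with trametinib, with 2 and 4 of 6 above 1 CPM. Sftpb was lower (-3.82, adjusted p = 0.000392), and Scgb1a1 (2.66) and Hopx (2.84) were called higher from under 1 CPM, among 4 tested. The summed immune markers were 9.55 to 15.9 and 21.8 to 28.6 CPM, with 2 of 4 listed above 1 CPM in both. Their part in the result was not tested.

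**Figure D4:**
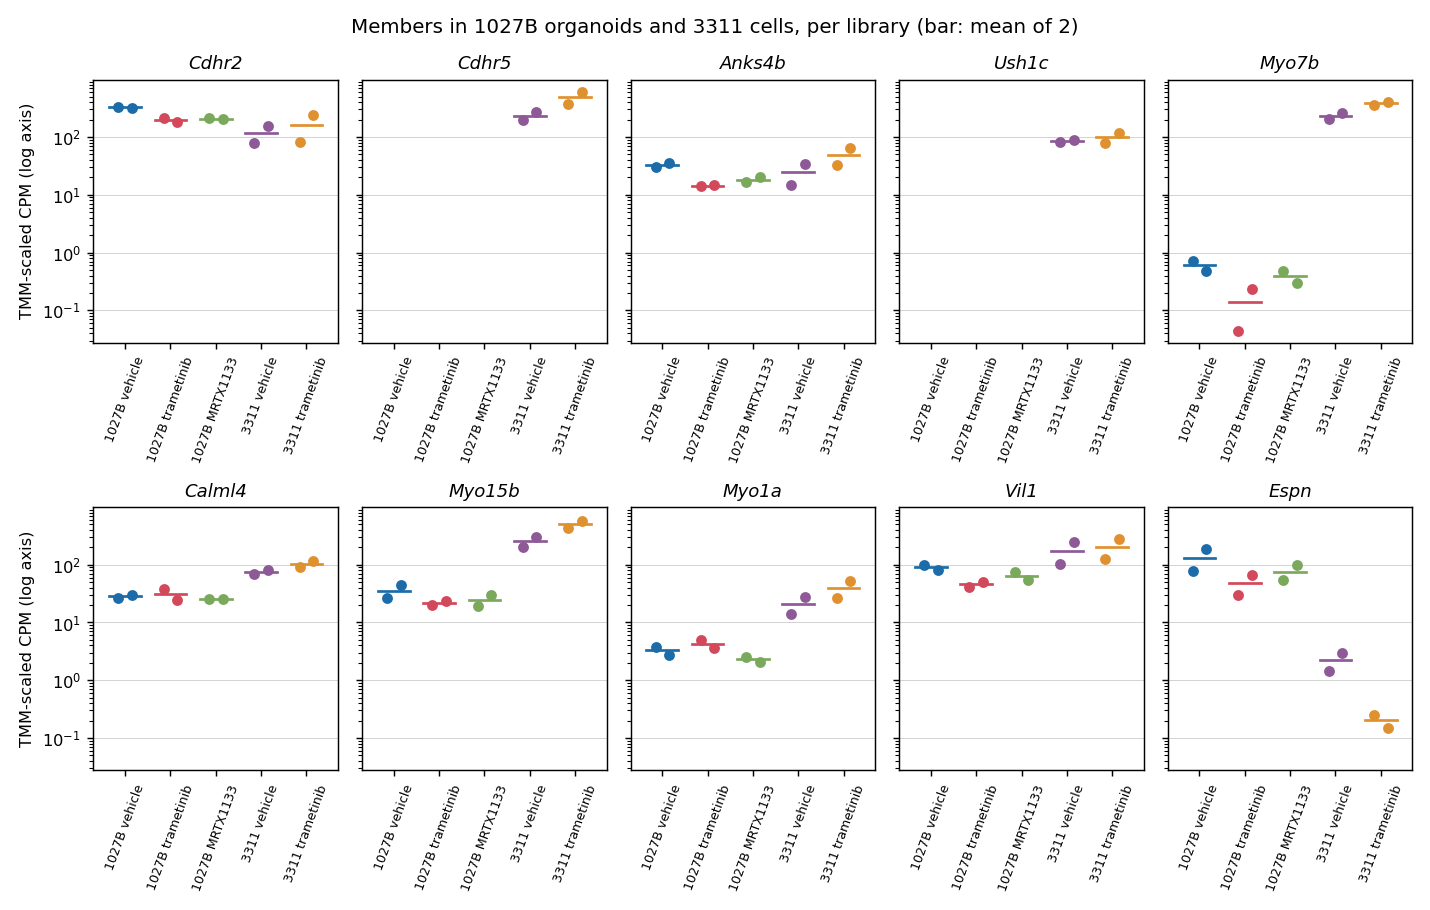
Level of each gene in the 6 libraries of 1027B organoids and the 4 of 3311 cells, as TMM-scaled CPM on a log axis, with points for libraries and a bar for the mean of 2. Cdhr2, Anks4b and Vil1 lie lower with inhibitor in 1027B, Cdhr5, Myo7b and Myo15b lie higher with trametinib in 3311, and Cdhr5 and Ush1c are not listed for 1027B.

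In H1651 with trametinib, edgeR without a replicate block called 0 of 10 members, with a median of 0.15, and DESeq2 also 0. Of 18277 genes in all that edgeR fit called 0 (0%), 597 had an unadjusted p under 0.05, and DESeq2 called 47. HNF4A was 58.3 and 38.1 CPM with vehicle and 58.9 and 33.3 with trametinib. VIL1 was the 1 member of 10 whose groups did not overlap, where 28.5% of all genes tested did not, at 4.24 and 3.92 against 6.27 and 6.0 CPM (0.59, SE 0.16, adjusted p = 0.999). CDHR2 was 0.308 and 0.373 against 0.461 and 0.365, ANKS4B 2.48 and 1.28 against 3.83 and 2.10 and USH1C 21.7 and 12.8 against 23.2 and 17.3 CPM, each with overlapping groups. VIL1 was also the 1 member of the 10 with an unadjusted p under 0.05.

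H358 hardly expressed the set. HNF4A was listed with 0 counts in all 4 libraries, and so was USH1C. A count of 0 leaves room for 0.0644 to 0.118 CPM in these libraries, the level of 3 counts. CDHR2, CDHR5, ANKS4B, MYO7B, MYO1A and VIL1 had at most 10 counts in any library, so 3 of 10 members were tested. Of these MYO15B was called higher with trametinib, at 5.36 and 2.75 against 15.5 and 6.79 CPM (1.47, SE 0.41, adjusted p = 0.0196), where 46.8% of all genes were called (23.5% higher and 23.2% lower). The call was lost without the first trametinib library (adjusted p = 0.0524) and in DESeq2 (adjusted p = 0.0947). CALML4 was 1.48 and 1.79 against 0.752 and 1.37 (-0.67, SE 0.35, adjusted p = 0.151) and ESPN 1.99 and 1.88 against 1.25 and 1.10 (-0.71, SE 0.27, adjusted p = 0.0580). Without the second trametinib library CALML4 was called as well, at -1.11 (adjusted p = 0.0255). The summed fibroblast markers were 40.8 to 49.5 CPM with vehicle and 246 to 348 with trametinib, and the tuft markers 10.4 to 14.9 and 47.5 to 59.1. Of 6 fibroblast markers 2 were above 1 CPM with vehicle and 3 with trametinib, and of 5 listed tuft markers 1 and 2. Of 5 ciliated markers tested 4 were called higher (27.2 to 36.3 against 44.2 to 51.4 CPM summed), of 3 lung markers 3 were higher (133 to 146 against 222 to 254 CPM summed), and of 6 epithelial markers 3 were lower and 1 higher (5455 to 5647 against 3702 to 4006 CPM summed). Their part in the result was not tested. Of 16 other core and linker genes 14 were called, 7 in each direction, led by CLIC5 (5.43). Of 6 enzymes and transporters 2 were higher, of 5 stereociliary counterparts 2 were higher, and of 7 transcription factors 4 were higher and 2 lower.

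**Figure D5:**
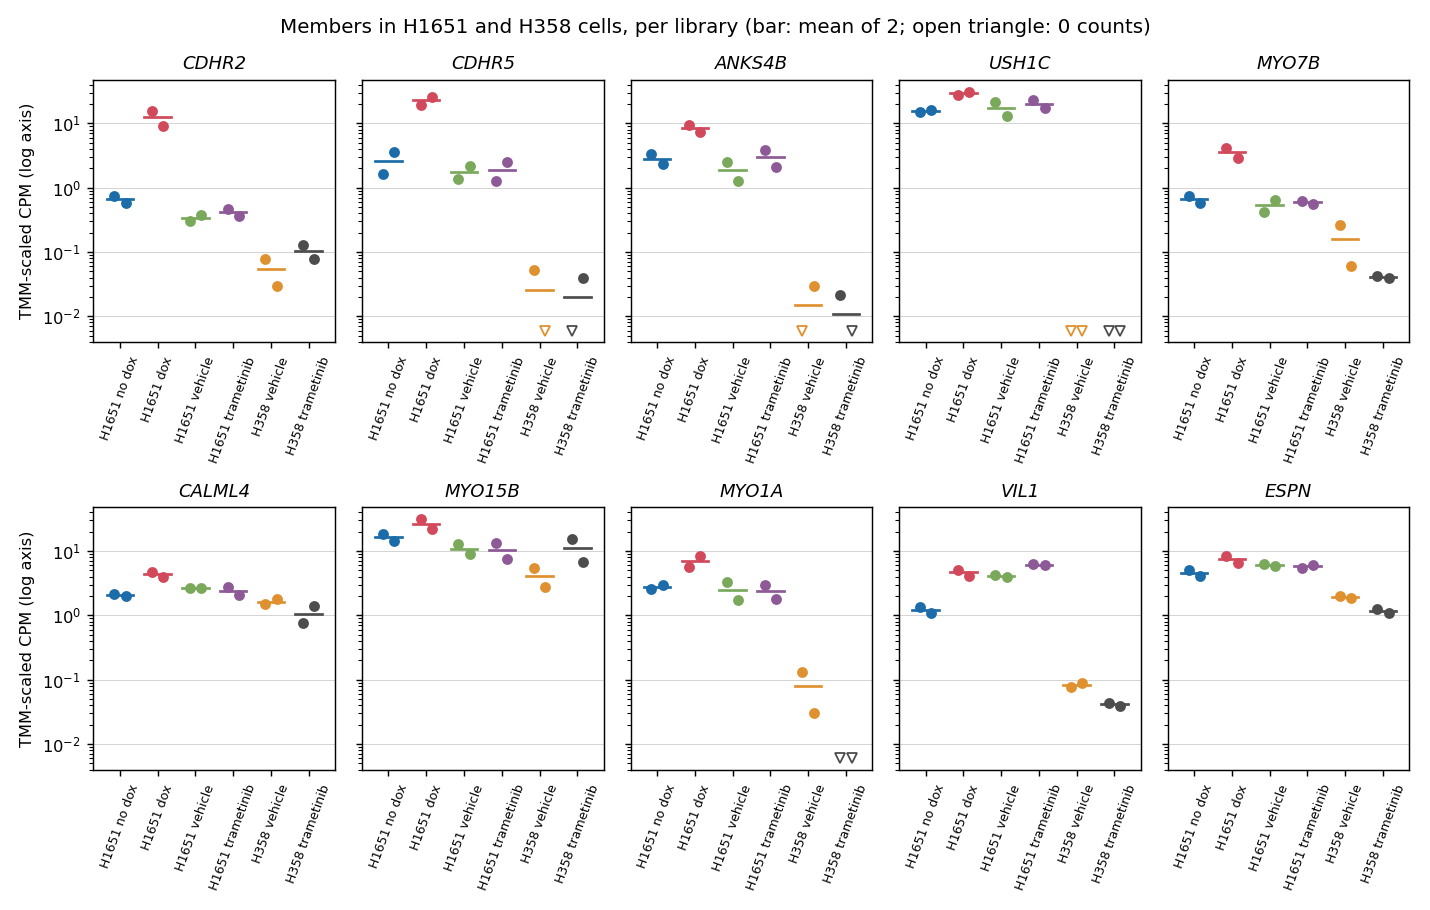
Level of each gene in the 12 libraries of the human lines H1651 and H358, as TMM-scaled CPM on a log axis, with points for libraries and a bar for the mean of 2; open triangles mark libraries with 0 counts. The doxycycline libraries lie above their controls for all 10 genes, the trametinib libraries of H1651 overlap theirs except for VIL1, and in H358 only CALML4, MYO15B and ESPN are well above the floor.

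The inhibitor comparisons differ in line and medium and, except for H1651 and H358 with trametinib, in dose, so the values are given side by side with no comparison between lines. Trametinib changed Cdhr2 by -0.70 in 1027B, 0.45 in 3311 and 0.29 in H1651, and Anks4b by -1.19, 0.99 and 0.64. It changed Espn by -1.48 in 1027B, -3.42 in 3311, -0.06 in H1651 and -0.71 in H358. Espn was called in 3311, and in 1027B with the replicate block (-1.46, adjusted p = 2.21e-05) or without the first vehicle library. In H358 ESPN was called with at least 10 counts in every library (adjusted p = 0.0466). In H1651 the value for ESPN was 0.00748 without the first trametinib library. With MRTX1133 the log2 fold change of Cdhr2 was -0.64 in 1027B at 20 nM and -0.29 in intact 3154 at 3 nM. That of Vil1 was -0.49 and -0.26, and without the block only Cdhr2 in 1027B was called.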

How the data were processed

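RNA was sequenced from mouse organoids, a mouse cell line and human cell lines of lung adenocarcinoma, as poly(A)-selected, directional libraries per the labels' protocols. The authors deposited raw read counts per gene, and cutadapt 3.5, STAR 2.7.6a and featureCounts 1.6.3 are named in the submitters' processing notes, with the builds mm10, mm39 and hg38. Which build and annotation served which table, and the strand setting of the counting, are not given in the sources used here.

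The columns of the 3311 table name treatment and replicate but no culture, and were taken as 3311 because the table is named for that line and the libraries of every other culture are named in full in their own tables. Total counts per library were 19692517 to 45284286, which limits the precision of genes read a few times. Replicates of a group differed by 5.396 to 79.5 times the counting noise (chi-square per degree of freedom), so none was counted as a duplicate. Each table was filtered with filterByExpr and fitted with all its groups in edgeR 4.0.16 (TMM, quasi-likelihood test, R 4.3.3, limma 3.58.1), tested on simulated data, with Benjamini-Hochberg adjustment over 14492 to 18972 genes. The standard error of a log2 fold change was taken as its size over the square root of F. Where all libraries of a group had 0 counts, a bound was set from 3 counts per library. DESeq2 1.42.0, other size factors, no filter, at least 10 counts in every library, a block for the replicate number, a fit limited to the 2 groups in question and leaving out each library were tried as alternatives.

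The labels number replicates 1 and 2 in each group. In 1027B the correlations between groups of the difference between replicates 1 and 2 over genes were 0.243, 0.372 and 0.414, and the numbers were taken to pair the libraries. The other tables hold 1 pair of groups each or, for 3154 at 48 hours, correlations of both signs, and were not taken as paired. The correlations in H1651 with trametinib (0.623) and in 3154 at 2 weeks (0.427) were above those of 1027B, so libraries may be paired there too. In every table the calls given first are from the fit without the block.

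Members and gene lists were chosen with earlier results of these data known, and the lung marker list was added after the values were seen. The text names all 10 members, Hnf4a, at most 3 called genes of largest absolute change per other list and comparison, and the 5 genes most like the members' mean. Gene positions and exon lengths are from GENCODE M21 (GRCm38), matched by gene identifier, where 20 to 577 identifiers per mouse table had no match. Promoters are from RefSeq. Some genes of the lists and an engineered allele that the mouse cultures share are not reported here. No annotation was used for the human genes, so their levels were not compared per length.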

Additional observations from a re-analysis of the deposited data

Results flagged for a closer look

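Myo7b and Myo15b had trametinib changes of opposite sign in the 2 mouse cultures with floxed Foxa1 and Foxa2. Myo7b changed by -2.11 in the 1027B organoids at 10 nM and by 0.74 in the 3311 line at 50 nM, and Myo15b by -0.68 and 0.99. In each case both treated libraries lay on one side of both vehicle libraries, and on the opposite side in the other culture, where 67.1% of all genes tested in 1027B and 74.5% in 3311 had groups that did not overlap. The difference between cultures was not tested, since the tables were fitted separately and the doses differ. Myo7b rested on 1 to 15 counts per library in 1027B, and neither gene was called there except Myo15b with the replicate block. In 3311 both were called, and both calls were lost without the first vehicle library (adjusted p = 0.0556 for Myo7b and 0.0766 for Myo15b).

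Vil1 changed by -0.26 with MRTX1133 in 3154 organoids with intact Hnf4a and by 0.11 after deletion, again without overlap of the groups, as in 33% and 66.6% of all genes tested. The interaction was 0.37 (SE 0.194, adjusted p = 0.772) and was not called.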

How the results depend on the processing

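Over the combinations of a member, a comparison and an alternative, 1012 kept direction and side of the threshold, 28 lost a call, 40 gained one and 37 reversed sign. Relative log expression size factors changed no count of members called. With at least 10 counts in every library, 6 members were called after deletion at 48 hours with vehicle and 6 under MRTX1133, where 6 could be tested, and 2 in H358. DESeq2 called 1 member in the interaction and 0 in H358. Fitting only the 2 groups compared left 1 call for MRTX1133 in 1027B. With the replicate block, the calls were 10 in H1651 with doxycycline, 5 with trametinib and 5 with MRTX1133 in 1027B, 2 between them, 7 in 3311, 3 in H358 and 2 in H1651 with trametinib, where the share of all genes called was 17.6%, 44.9%, 24.1%, 14.1%, 41.7%, 60.4% and 10.3% in that order. The block moved Ush1c with MRTX1133 after deletion to -0.0309, where both groups had 0 counts. No other count of members called moved beyond 1.5 times with the block. Over all genes, the calls at 2 weeks rose from 1421 to 4563 of 14492 with it (9.81% to 31.5%). Outside 1027B the replicates share only a number. Their correlations were 0.427 in 3154 at 2 weeks, -0.251 to 0.549 at 48 hours and 0.126 in 3311. They were 0.318 in H1651 with doxycycline, 0.623 with trametinib and 0.318 in H358. The calls with the block in H1651 with trametinib were ANKS4B (0.66, adjusted p = 0.00919) and VIL1 (0.59, adjusted p = 0.00121).

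Leaving out 1 library at a time, a lone library being taken to vary like the others, gave 7 to 9 calls at 2 weeks, 9 to 10 at 48 hours with vehicle, 10 under MRTX1133, 0 for MRTX1133 after deletion, 7 to 8 with doxycycline, 2 to 4 with trametinib and 0 with MRTX1133 in 1027B, 1 to 8 in 3311 and 0 to 2 in H358. Calls over all genes moved too, to between 395 and 2790 at 2 weeks, 1668 and 5964 at 48 hours with vehicle, 1745 and 2805 under MRTX1133, 0 and 23 for MRTX1133 after deletion, 232 and 412 with doxycycline, 1336 and 2754 with trametinib and 138 and 349 with MRTX1133 in 1027B, 3772 and 6298 in 3311 and 6682 and 9265 in H358. It left 0 members with MRTX1133 and intact Hnf4a, in the interaction, between the inhibitors in 1027B and in H1651 with trametinib. The log2 fold changes that reversed were uncalled as reported, and the cause was not tested. They ranged from -3.04 to 0.0557 for Myo7b at 2 weeks. With MRTX1133 and intact Hnf4a they ranged from -0.44 to 0.0945 for Cdhr5, -0.10 to 0.34 for Anks4b, -0.32 to 0.60 for Ush1c, -0.17 to 0.78 for Myo1a and -0.99 to 0.0440 for Espn. After deletion the range was -0.69 to 1.02 for Anks4b, and in the interaction -0.79 to 0.92 for Anks4b, -0.60 to 0.32 for Ush1c and -0.26 to 0.21 for Calml4. In 1027B it was -0.21 to 0.40 for Calml4 with trametinib, -0.23 to 0.00562 for Calml4 with MRTX1133, and -0.0486 to 0.18 for Cdhr2, -0.53 to 0.0825 for Calml4 and -0.19 to 0.43 for Myo15b between them. In 3311 it was -0.51 to 1.02 for Cdhr2, -0.10 to 0.45 for Ush1c and -0.48 to 0.97 for Vil1, and in H1651 with trametinib -0.44 to 0.53 for CDHR5, -0.0942 to 0.65 for USH1C, -0.14 to 0.51 for MYO7B, -0.33 to 0.0508 for CALML4, -0.53 to 0.29 for MYO15B, -0.52 to 0.47 for MYO1A and -0.14 to 0.00748 for ESPN. Depth limits Ush1c in the 3154 organoids, Anks4b and Myo15b after deletion, Myo7b in 1027B and 7 members in H358.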
